A study of Solanum lycopersicum with 8 samples.

Results

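Nitrate reduction and the synthesis of glutamine and asparagine were followed through 10 tomato genes, taken by gene identifier from the 34688 genes in the expression table. They were taken here as 1 nitrate reductase, 2 nitrite reductases, 3 cytosolic and 1 plastid glutamine synthetase, 1 ferredoxin-dependent glutamate synthase (Fd-GOGAT) and 2 asparagine synthetases. The study's own gene list and text annotate Solyc11g013810 as the nitrate reductase *NIA* and Solyc04g014510 as the cytosolic glutamine synthetase *GLN1;1*. Genes entered the study's list for changing in these same libraries, so that calls of both annotated genes here are no independent evidence. The enzyme given for each of the other 8 genes follows the order in which the selection rule names the enzymes. That rule gives no number of genes per enzyme, so where 1 enzyme ends and the next begins was assigned here. Neither was checked against an annotation.

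In plants, nitrate reductase turns nitrate into nitrite in the cytosol, and nitrite reductase takes nitrite to ammonium in the plastid with electrons from ferredoxin. Glutamine synthetase then fixes ammonium onto glutamate, Fd-GOGAT passes the amide nitrogen of glutamine on to a new glutamate, and asparagine synthetase moves it onto aspartate, which gives asparagine for transport and storage. The plastid glutamine synthetase also recaptures the ammonium set free by photorespiration in leaves, and the cytosolic forms are known for work in roots and vascular tissue. The target of rapamycin (TOR) kinase couples nutrient supply, amino acids among them, to growth, and Torin2 blocks its active site.

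RNA was sequenced from whole wild-type Micro-Tom seedlings, 10 days old and grown at 25 °C, in 4 mock-treated and 4 Torin2-treated libraries. Torin2 was given at 5 μM for 2 h and the mock treatment was DMSO, the solvent, at 0.1%. The sample labels place the mock solvent in water and the protocol places both agents in solid half-strength medium. Each library is a biological replicate per the paper's methods. Root and shoot markers were not analysed here, and in whole seedlings a change in the number of cells of a type cannot be told apart from a change in the RNA of each cell. The question was how inhibition of *Sl*TOR alters the transcripts of this pathway.

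Expression is given in FPKM, the fragments of a gene scaled to its length and to the depth of the library, so that levels of different genes can be set side by side. Library depth ran from 36989257 to 39868131 fragments. Inside each condition the libraries fell on either side of the first component of their deviations, which held 53.6% of the variance of these deviations: mock replicates 1 and 2 with Torin2 replicates 2 and 4 (the first kind), and mock replicates 3 and 4 with Torin2 replicates 1 and 3 (the second kind). No label names these kinds. The summed FPKM of a library ran from 902518.9 to 960062.4 in the first kind and from 1053057.8 to 1162358.9 in the second. What lies behind the kinds was not tested. All 10 genes were higher in both Torin2 libraries of the first kind than in both of the second, and 8 of the 10 were so among the mock libraries as well, so that changes are also given within each kind, where 2 libraries a condition allow no test. The component was taken over all genes tested. How many of these split in the same way was not counted, so the split is not read as a trait of the 10 genes.

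By an adjusted p under 0.05, the nitrate reductase and 1 of 2 nitrite reductases rose in Torin2-treated seedlings, and 2 of 3 cytosolic glutamine synthetases fell. The other nitrite reductase, the nearly silent cytosolic glutamine synthetase, the plastid form, Fd-GOGAT and both asparagine synthetases, 6 genes in all, did not pass the test. Both nitrite reductases lay close to the threshold of 0.05. Solyc10g050890 had a limma adjusted p of 0.0416 at a log2 fold change of 0.76, and Solyc01g108630 one of 0.0514 at 0.85. A difference between their changes was not tested. Each fell on either side of 0.05 depending on the alternative fit, so no split between them is read from this. A gene was called with an adjusted p under 0.05 (limma on log2(FPKM + 0.1), Benjamini-Hochberg over the 22330 genes tested) and an absolute log2 fold change over 1. All 10 genes passed the filter of a mean of 0.1 FPKM. *NIA* was called higher, 1 of the 10, where 5.31% of all genes tested were called higher, and *GLN1;1* was called lower, again 1 of the 10, against 3.0% of all genes. By the adjusted p alone, 2 of the 10 genes were higher and 2 lower, beside 7.53% and 5.08% of all genes tested. In 3 genes the 4 Torin2 libraries lay above the 4 mock libraries and in 2 genes below them, beside 11.4% and 7.77% of all genes. Shares of so few genes are coarse, and nothing is read from them about the group. The median log2 fold change of the 10 genes was -0.00 and that of all genes tested 0.16; median-of-ratios scaling brought the latter to 0.01. The kind of library, taken from these same libraries, was also used as a covariate. Each kind holds 2 libraries of each condition, so this fit cannot move the changes of the 10 genes. Its adjusted p was 0.000958 for the nitrite reductase Solyc01g108630 and 0.00297 for Fd-GOGAT, Solyc03g083440, which missed the threshold without the covariate, and the other 8 genes kept their side of 0.05.

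**Figure D1:**
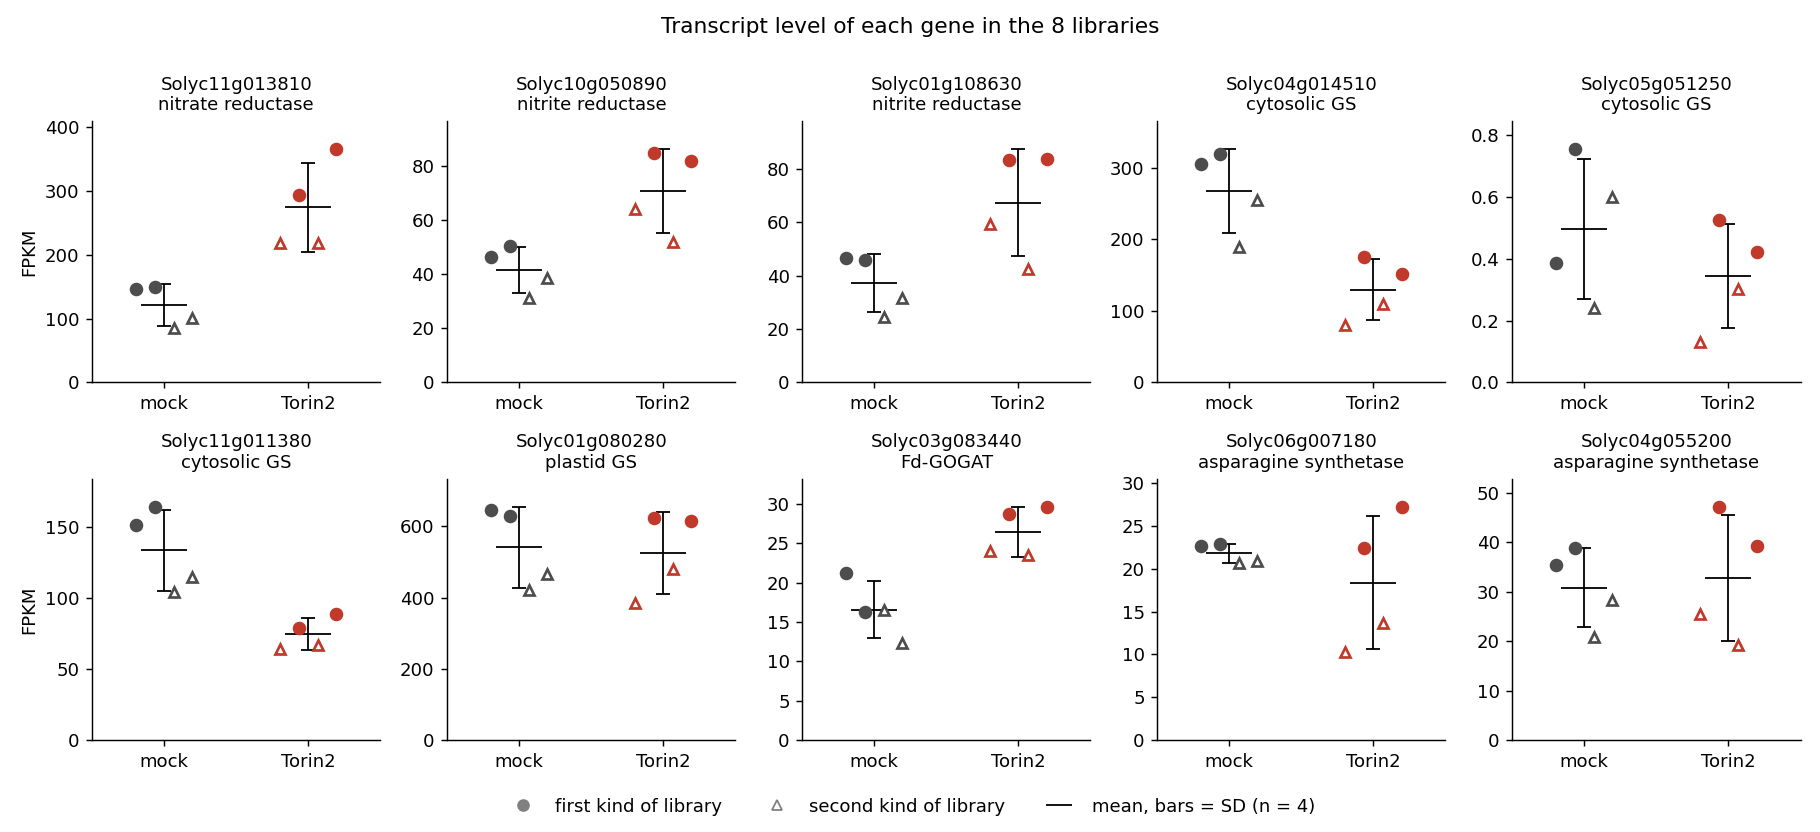
Level of the 10 genes in FPKM (vertical axis, linear from 0) in the 4 mock and 4 Torin2 libraries. Filled circles are libraries of the first kind, open triangles of the second, and black bars are the mean ± SD. The Torin2 libraries of Solyc11g013810 sit between 218 and 365 FPKM, all above the mock libraries, and those of Solyc04g014510 between 80.6 and 176 FPKM, all below them.

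*NIA* (Solyc11g013810), the nitrate reductase, catalyzes the entry step of nitrate assimilation. Its level was 147, 150, 85.7 and 101 FPKM in mock replicates 1 to 4, and 219, 294, 218 and 365 FPKM in Torin2 replicates 1 to 4. The highest mock library stayed below the lowest Torin2 library, and replicate 4 was the highest of the Torin2 libraries. The mean rose from 121 ± 32.5 to 274 ± 70.4 FPKM (SD, n = 4 each), a 2.27-fold difference between the means. On the log2 scale this was a change of 1.19 with a standard error of 0.24 and an adjusted p of 0.00546. Counted from the median of all genes, the change was 1.02. These values rested on 11245 to 46673 fragments a library.

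The rise of *NIA* was of like size in both kinds of libraries, 1.14 (log2) in the first and 1.23 in the second. It was called in each of the 8 fits that left out a single library, with log2 fold changes from 1.03 to 1.30. The gene model is 3292 bp long. With the dependence on gene length taken out of each library, the change came to 0.87 (log2), too small for a call, at an adjusted p of 0.00495 (6.29e-05 to 0.0297 over 20 alternatives).

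The nitrite reductases act on the product of nitrate reductase in the plastid, where nitrite is toxic if it builds up. Solyc10g050890 was measured at 46.5, 50.7, 31.4 and 38.5 FPKM in mock replicates 1 to 4. In Torin2 replicates 1 to 4 it was measured at 64.1, 84.9, 52.1 and 82.2 FPKM. No mock library reached the lowest Torin2 library, the closest pair being mock replicate 2 and Torin2 replicate 3. The gene rose by the adjusted p alone, by 0.76 on the log2 scale with a standard error of 0.23 and an adjusted p of 0.0416, from 41.8 ± 8.57 to 70.8 ± 15.5 FPKM (SD, n = 4 each). Over 20 alternatives the adjusted p ran from 0.000897 to 0.126. It was above 0.05 in 6 of the 8 fits without a single library, up to 0.126 without mock replicate 3, and below it without Torin2 replicate 1 (0.0338) or Torin2 replicate 3 (0.0326). It was also above 0.05 without a filter on low values (0.0525), with TPM scaling (0.117) and without the variance trend (0.0793).

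Solyc01g108630, the other nitrite reductase, was at 46.8, 45.7, 24.5 and 31.7 FPKM in mock replicates 1 to 4 and at 59.5, 83.3, 42.6 and 83.9 FPKM in Torin2 replicates 1 to 4. Torin2 replicate 3 lay below mock replicates 1 and 2, and the other Torin2 libraries were above every mock library. The log2 fold change of 0.85 (standard error 0.27) missed the test with a limma adjusted p of 0.0514. Within the first and the second kind of libraries it was 0.85 both times, and each Torin2 library was above each mock library of its kind. Without Torin2 replicate 3 it was 1.05 with an adjusted p of 0.0272, which passes both cut-offs (0.000958 to 0.155 over 20 alternatives). The adjusted p was under 0.05 in 3 of the 8 fits without a single library. The filter at 1 FPKM (0.0445), median-of-ratios (0.0312), quantile scaling (0.0456) and the replicate block (0.0315) also brought it under. So did removal of the length trend (0.0144) and limma-voom (0.0242). It was above 0.05 at pseudocounts of 1 FPKM (0.0505) and 0.01 FPKM (0.056) and without the filter (0.0789). TPM scaling (0.123) and no variance trend (0.0947) also left it above.

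Both nitrite reductases stood at almost the same level inside a library. Solyc10g050890 divided by Solyc01g108630 was between 0.994 and 1.28 in the mock and between 0.979 and 1.22 in the Torin2 libraries, so that the ranges overlapped. *NIA* divided by the sum of both nitrite reductases was 1.57, 1.56, 1.53 and 1.44 in mock replicates 1 to 4 and 1.77, 1.75, 2.30 and 2.20 in Torin2 replicates 1 to 4. The ranges of this ratio did not overlap. Ratios inside a library do not depend on its scaling, but the genes differ in length, and no test was run on them.

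**Figure D2:**
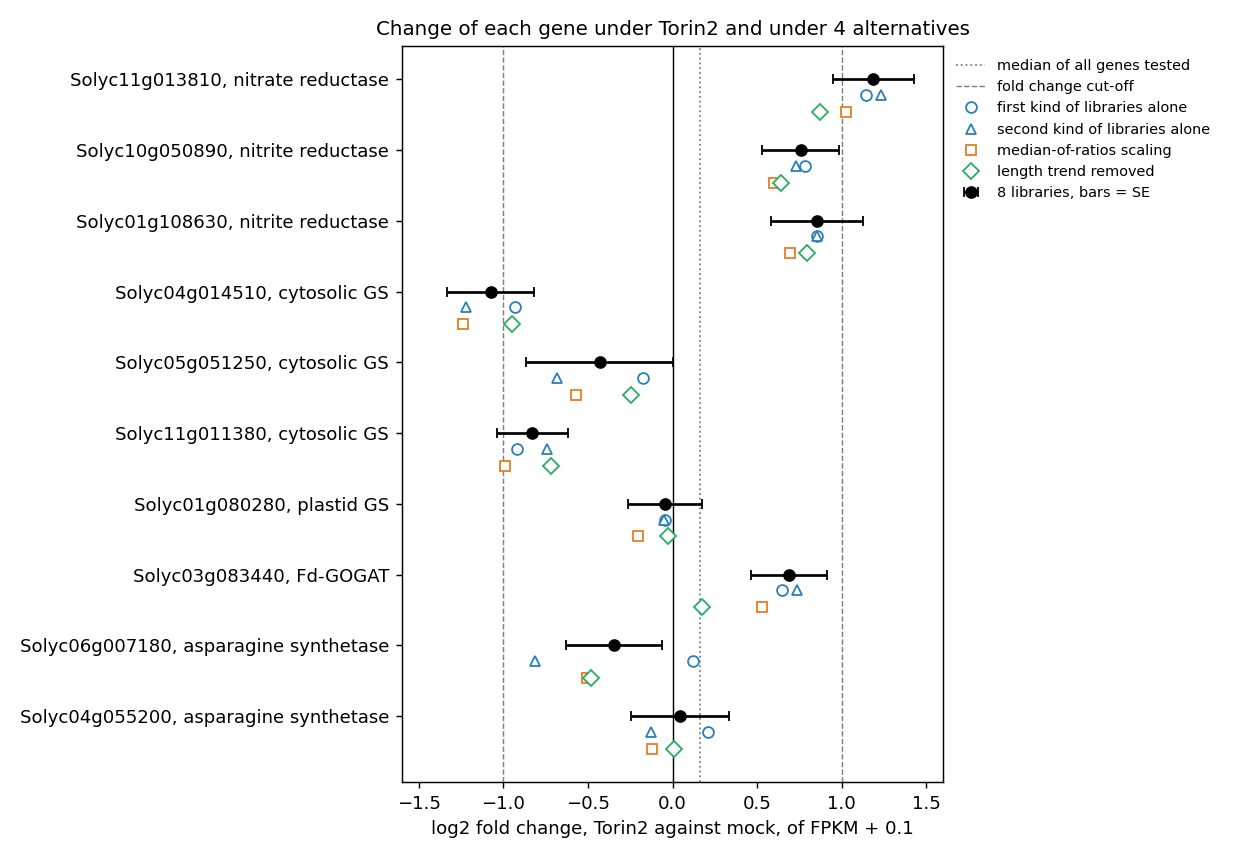
Log2 fold change of Torin2 against mock for each gene (horizontal axis), with black points for all 8 libraries and bars for the standard error, and open symbols are the values within each kind of library, after median-of-ratios scaling and after removal of the length trend. The dashed lines mark the fold change cut-off and the dotted line the median of all genes tested, 0.16. Fd-GOGAT moves most when the length trend is removed, from 0.69 to 0.17.

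*GLN1;1* (Solyc04g014510) codes for a cytosolic glutamine synthetase and was the second most abundant of the 10 transcripts in mock-treated seedlings. Mock replicates 1 to 4 gave 305, 319, 189 and 255 FPKM, and Torin2 replicates 1 to 4 gave 80.6, 176, 110 and 152 FPKM. Every Torin2 library was below every mock library, and the gap between Torin2 replicate 2 and mock replicate 3 was the smallest. The mean fell from 267 ± 58.8 to 130 ± 42.6 FPKM (SD, n = 4 each), and the mock mean was 2.06 times the Torin2 mean. This was a change of -1.07 on the log2 scale with a standard error of 0.26 and an adjusted p of 0.0137. Counted from the median of all genes, it was -1.24.

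The fall of *GLN1;1* passed the adjusted p in all 8 fits without a single library, while its size crossed the fold change cut-off in 6 of them. It was -0.98 without mock replicate 2 and -0.87 without Torin2 replicate 1. It was -0.94 after quantile normalization and -0.95 with the length trend removed, again under the cut-off. Libraries of the first kind gave a change of -0.93 and those of the second -1.22.

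Solyc11g011380, another cytosolic glutamine synthetase, also fell, by the adjusted p alone. Its level was 151, 164, 104 and 115 FPKM in mock replicates 1 to 4 and 63.8, 78.6, 67.2 and 88.4 FPKM in Torin2 replicates 1 to 4. No Torin2 library reached the lowest mock library. Its change was -0.83 on the log2 scale, with a standard error of 0.21 and an adjusted p of 0.0193. The first kind of library gave -0.92 and the second -0.74. The adjusted p ran from 0.000329 to 0.073 over 20 alternatives and was above 0.05 without mock replicate 1 (0.0604), mock replicate 2 (0.073) or Torin2 replicate 3 (0.0516), and with TPM scaling (0.0728).

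The last cytosolic form, Solyc05g051250, was nearly silent. Between 13 and 40 fragments were found in a mock library and between 7 and 27 in a Torin2 library, at 0.496 ± 0.226 and 0.345 ± 0.169 FPKM (SD, n = 4 each). The ranges overlapped, and the log2 fold change of -0.43 (standard error 0.43) had a limma adjusted p of 0.543. Its standard error was larger than those of *GLN1;1* (0.26) and Solyc11g011380 (0.21). Whether a change of the size seen in these forms could be detected for it was not tested.

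The plastid glutamine synthetase, Solyc01g080280, was the most abundant of the 10 transcripts in both conditions. It was measured at 647, 628, 422 and 467 FPKM in mock replicates 1 to 4 and at 384, 623, 480 and 615 FPKM in Torin2 replicates 1 to 4. The ranges nearly coincided, and both were split by the kind of library. Its change of -0.05 (log2) was smaller than its standard error of 0.22, with an adjusted p of 0.919. The first kind gave -0.04 and the second -0.05.

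The make-up of the glutamine synthetase transcripts differed between the conditions with little spread. The plastid form held 58.7%, 56.5%, 59.0% and 55.8% of the summed glutamine synthetase FPKM in mock replicates 1 to 4. Its share was 72.7%, 70.9%, 73.0% and 71.8% in Torin2 replicates 1 to 4. The lowest Torin2 share was above the highest mock share, and both kinds of libraries gave alike shares. *GLN1;1* held 28.3 ± 1.71% in the mock and 17.4 ± 2.02% in the Torin2 libraries, and Solyc11g011380 held 14.2 ± 0.552% and 10.4 ± 1.28% (SD, n = 4 each). The summed cytosolic level was 401 ± 86.5 FPKM in the mock and 205 ± 52.4 FPKM in the Torin2 libraries. These sums and shares are a description with no test. They rest on the assignment of plastid and cytosolic forms, which was not checked apart from *GLN1;1*. The gene models of the 4 forms are 1346 to 1826 bp long, and how fragments shared between near-identical copies were assigned is not given in the sources used here.

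**Figure D3:**
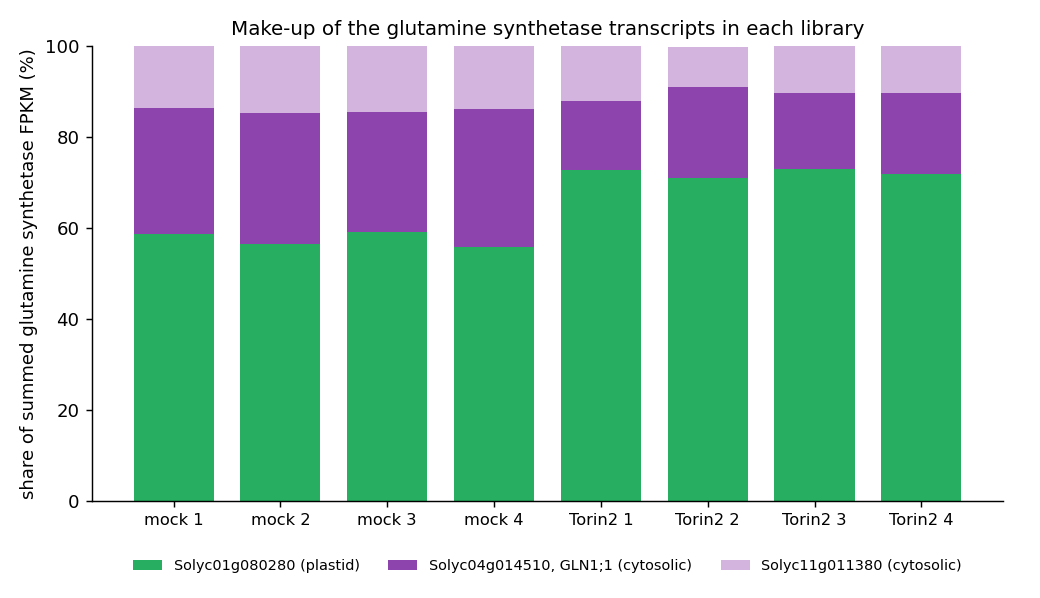
Share of the summed glutamine synthetase FPKM (vertical axis, percent) held by the plastid gene and the abundant cytosolic genes in each of the 8 libraries. The remainder, from Solyc05g051250, is too small to see. The plastid share is 55.8% to 59.0% in the mock and 70.9% to 73.0% in the Torin2 libraries.

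Fd-GOGAT (Solyc03g083440) works beside the plastid glutamine synthetase and returns glutamate to it. Its level was 21.2, 16.3, 16.5 and 12.3 FPKM in mock replicates 1 to 4 and 24.0, 28.8, 23.5 and 29.6 FPKM in Torin2 replicates 1 to 4. The lowest Torin2 library was above the highest mock library, yet the adjusted p of 0.0555 missed the threshold, at a change of 0.69 on the log2 scale with a standard error of 0.22. Over the 70 ways to split the libraries 4 against 4, a two-sided exact permutation test gave p = 0.0286, the smallest it can reach. Ranges that do not overlap fix this unadjusted p, so it adds nothing to them. Among all genes tested, 11.4% had every Torin2 library above every mock library.

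Gene length moved with this value. With 7022 bp, the Fd-GOGAT gene model is the longest of the 10, and with the length trend removed its change was 0.17 (log2) at an adjusted p of 0.458 (0.00297 to 0.458 over 20 alternatives). On the deposited scale the first kind of library gave 0.65 and the second 0.73. Without Torin2 replicate 1 the adjusted p was 0.0404. The plastid glutamine synthetase divided by Fd-GOGAT was 30.5, 38.4, 25.6 and 38 in mock replicates 1 to 4 and 16.0, 21.6, 20.4 and 20.8 in Torin2 replicates 1 to 4. The ranges of this ratio did not overlap, but its genes differ widely in length.

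**Figure D4:**
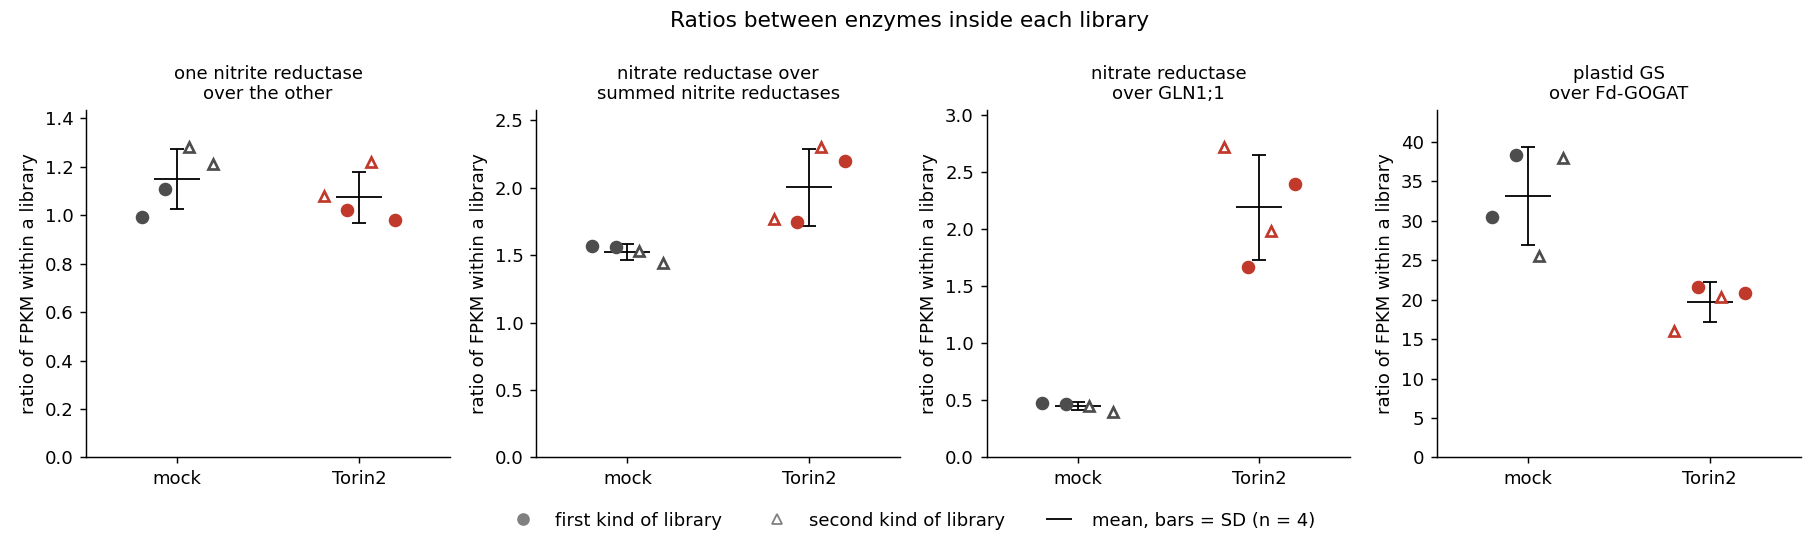
Ratios of FPKM between enzymes inside each library (vertical axes, linear from 0), with symbols as in the plot of levels and black bars for the mean ± SD. The ratio of both nitrite reductases overlaps between the conditions, whereas nitrate reductase over *GLN1;1* is 0.397 to 0.481 in the mock and 1.67 to 2.72 in the Torin2 libraries. The latter ratio could not overlap, as nitrate reductase rose and *GLN1;1* fell with no overlap.

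The asparagine synthetases did not pass the test, and their Torin2 libraries were spread widely. Solyc06g007180 was at 22.6, 22.9, 20.7 and 20.9 FPKM in mock replicates 1 to 4, the tightest group of any of the 10 genes, with a coefficient of variation of 5.21%. In Torin2 replicates 1 to 4 it was at 10.3, 22.4, 13.6 and 27.2 FPKM, with a coefficient of variation of 42.6%. Torin2 replicates 1 and 3, the second kind, were below every mock library, whereas Torin2 replicate 4 was above and Torin2 replicate 2 among them. Over the 8 libraries the change was -0.35 (log2) with a standard error of 0.28 and an adjusted p of 0.441. The first kind gave 0.12 and the second -0.81, and this difference between the kinds was not tested.

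Solyc04g055200, the other asparagine synthetase, was at 35.4, 38.8, 20.8 and 28.2 FPKM in mock replicates 1 to 4 and at 25.5, 47.1, 19.2 and 39.2 FPKM in Torin2 replicates 1 to 4. The ranges overlapped almost fully, and the libraries of the first kind were the higher ones in both conditions. A change of 0.04 (log2) stood beside a standard error of 0.29 and an adjusted p of 0.945. The first kind gave 0.21 and the second -0.13. The summed level of both genes was 52.6 ± 9.08 FPKM in the mock and 51.1 ± 19.5 FPKM in the Torin2 libraries (SD, n = 4 each).

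The order of the levels changed in its upper part. In the mock libraries the plastid glutamine synthetase (541 FPKM) stood above *GLN1;1* (267), Solyc11g011380 (133) and *NIA* (121), where the ranges of neighbours overlapped only between the last pair. In the Torin2 libraries *NIA* (274) was second and *GLN1;1* (130) next, each apart from the gene above it. *NIA* divided by *GLN1;1* was between 0.397 and 0.481 in the mock and between 1.67 and 2.72 in the Torin2 libraries, in both kinds of libraries. As *NIA* rose and *GLN1;1* fell with no overlap, this ratio could not overlap and is no further result. Their gene models also differ in length, 3292 and 1528 bp. From the nitrite reductases down to Fd-GOGAT and the asparagine synthetases, the ranges of neighbours overlapped in both conditions.

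Upstream of the reductases, the study's gene list annotates 3 nitrate transport genes, all chosen there for changing in these same libraries, so that their direction is no independent evidence. Of these 3, 2 were called lower and none higher, where 3.0% of all genes tested were called lower and 5.31% higher. Since the 3 were chosen for changing, their share cannot be weighed against that of all genes. Solyc03g112100, *NRT3.2*, annotated as a high-affinity nitrate transporter, was at 142, 163, 150 and 163 FPKM in mock replicates 1 to 4 and at 69.7, 55.6, 74.9 and 61.1 FPKM in Torin2 replicates 1 to 4. Its libraries did not overlap between conditions, and it changed by -1.25 on the log2 scale with a standard error of 0.19 and an adjusted p of 0.000602. Solyc08g007430, *NPF6.3*, whose Arabidopsis namesake is a nitrate transporter and sensor, fell from 26.8 ± 6.17 to 9.90 ± 1.65 FPKM (SD, n = 4 each), a change of -1.41 on the log2 scale with a standard error of 0.235 and an adjusted p of 0.00144. Solyc06g074990, *NRT2.1*, was found in 11 to 34 fragments a mock library and 1 to 9 a Torin2 library. Its adjusted p of 0.0697 missed the threshold, and it was called lower in 6 of 19 alternatives, over which the adjusted p ran from 0.0277 to 0.193. These were no filter on low values (0.0456), median-of-ratios scaling (0.0485), quantile normalization (0.0358), no variance trend (0.0378), the kind as a covariate (0.0277) and limma-voom on recovered fragments (0.0341). With so few fragments the size of its change depends on the pseudocount, and it was -1.32 on the log2 scale in the reported fit and -2.575 with limma-voom. *NRT3.2* and *NPF6.3* were thus lower in the same libraries in which *NIA* was higher.

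By Pearson's r of the log2 values over the 8 libraries, which share the treatment and the kind of library, the gene most like *NIA* was Solyc06g068540, described in the study's list as an ATP-dependent DNA helicase (r = 0.998), followed by Solyc01g065690, *HIPP23* (r = 0.995). The gene most like *GLN1;1* was Solyc03g031460, a pentatricopeptide repeat protein (r = 0.997), and the one most like Solyc11g011380 was Solyc04g016060, *MIZ1* (r = 0.997). Among the 10 genes themselves, r was 0.988 between both nitrite reductases, 0.967 between *NIA* and Solyc10g050890, 0.949 between both abundant cytosolic glutamine synthetases and -0.485 between *NIA* and *GLN1;1*. Many other genes had a higher r: Solyc10g050890 held rank 345 among the genes most like *NIA*. Solyc11g011380 held rank 474 for *GLN1;1*, and Solyc01g108630 rank 25 for Solyc10g050890. Seen from the other gene of each pair, the ranks were 278, 156 and 8. These are descriptions of 8 libraries in which the treatment itself moves the values, and they are given with no test.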

How the data were processed

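The authors trimmed paired-end reads of 150 bp, used HISAT2 for alignment to tomato assembly SL4.0 and tested counts with edgeR. In addition, fastp and HTSeq are named in the submitters' processing notes, with no role or version. They deposited FPKM values, a column per library with no pooling. The counting options, the annotation release and strandedness are not given in the sources used here. Whole fragments, gene lengths and library depth were recovered from the steps of the FPKM values for all 25571 genes above 0 in any library. A floor of 3 fragments was set but no fit applied it, and *NRT2.1* went down to 1 fragment in a Torin2 library. The recovered fragment numbers cover counting error only.

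Genes averaging 0.1 FPKM or more over the 8 libraries (22330) were kept. Their log2(FPKM + 0.1) values were compared between Torin2 and mock by limma 3.58.1 under R 4.3.3, using lmFit followed by eBayes with its trend option. No covariate was used, and p-values were adjusted over all genes tested. A fold change on this scale understates the change of low genes. A count test was not the main test because the values are FPKM. Scripts were tested on simulated data. Tables and exact permutation tests used Python 3.11.15, pandas 2.3.3 and scipy 1.17.1.

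All 10 genes, the called genes of the pathway list and the genes most like 3 of the 10 by Pearson's r are named. The RefSeq table used for gene names holds no tomato Solyc identifiers, so that the pathway list was the 3 nitrate transport genes annotated in the study's gene list. The members and lists were chosen with earlier results of these data known. Alternatives were other pseudocounts, filters and scalings, no variance trend, the replicate number as a block, the kind of library as a covariate or alone, removal of the length trend by loess with a span of 0.3, limma-voom on recovered fragments, and each library left out. Labels give replicate numbers 1 to 4 in both conditions but name no pairs. Sequences were not used here.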

Additional observations from a re-analysis of the deposited data

How the results depend on the processing

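For the 10 genes, 183 of the 199 values from alternatives with a test had the sign and the call of the reported one. The 20 values within 1 kind of library have no test, and 18 of them had the reported sign. What lies behind the other values was not tested. The count of genes called higher was 1186, but 642 at a pseudocount of 1 FPKM, 768 with median-of-ratios, 769 with TPM and 736 with quantile scaling, and from 663 to 1531 with a single library left out. The count called lower was 671, but 444 at that pseudocount, 1011 with median-of-ratios scaling, 1067 with limma-voom on recovered fragments and 490 to 793 with a library left out. Higher calls were thus 43.2% of all calls after median-of-ratios scaling against 63.9% as deposited.

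Of the 10 genes, 1 was called higher and 1 lower. With the length trend removed both counts were 0, and after quantile normalization the count called lower was 0. Without a single library they ran from 1 to 2 and from 0 to 1. By the adjusted p alone, 2 were higher, and 1 with no filter on low values, with TPM scaling or without the variance trend, but 4 with median-of-ratios or quantile scaling, with limma-voom or with the kind of library as a covariate, and 1 to 4 without a single library. Since the kinds come from the same data, such a covariate takes up residual variance by its making. Likewise 2 were lower by the adjusted p alone, 1 with TPM scaling and 1 to 2 without a single library.

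Changes of sign were limited to genes that were not called. The plastid glutamine synthetase was at 0.14 after quantile normalization and from -0.16 to 0.10 without a single library. Solyc06g007180 was at 0.12 in the first kind of libraries. Solyc04g055200 was at -0.12 with median-of-ratios scaling, -0.004 with quantile normalization, -0.12 with limma-voom, -0.13 in the second kind of libraries and from -0.16 to 0.27 without a single library.

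No pairing of the samples by replicate number was seen. The deviations of same-numbered libraries correlated at -0.38, 0.38, 0.40 and -0.25 for numbers 1 to 4, and 1 of 4 correlated best with its own number. Numbers 2 and 3 are of the same kind in both conditions and numbers 1 and 4 are not. These correlations thus follow the kinds and cannot settle whether the samples were paired. With the replicate block, 1235 genes were called higher and 674 lower, and of the 10 genes only Solyc01g108630 changed its side of the adjusted p threshold (0.0315).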

Other observations

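The study's text also names 5 genes for the synthesis of alanine, aspartate and serine, among them aminotransferases, which take their amino group from glutamate. They were set beside the nitrogen assimilation genes after the data had been seen. Of the 5, 1 was called higher and none lower, where 5.31% of all genes tested were called higher and 3.0% lower. With so few genes, nothing is read from this share. *SlAlaAT2* (Solyc03g123600), an alanine aminotransferase, rose from 1.42 ± 0.421 to 3.86 ± 0.72 FPKM (SD, n = 4 each), with 83 to 149 fragments a mock library and 248 to 353 a Torin2 library. It rose by 1.40 on the log2 scale with a standard error of 0.30 and a limma adjusted p of 0.00711, with all Torin2 libraries above all mock libraries. *SlAspAT1*, *SlAspAT5*, *SlGDH* and *SlSHM4* had log2 fold changes from -0.85 to 0.10 and limma adjusted p-values from 0.0718 to 0.965. With median-of-ratios scaling the adjusted p was 0.00583 for *SlSHM4*, a serine hydroxymethyltransferase, at a log2 fold change of -1.01, which passes both cut-offs, and 0.0234 for *SlAspAT1*, an aspartate aminotransferase, at -0.55.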
